A study of Homo sapiens with 9 samples.

Results

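The response to acetaminophen was examined in HuH-7 cells that also received serum exosomes, by setting the library of cells given acetaminophen at 10 mM with exosomes against the library of cells given exosomes without the drug. These are 2 of the 9 libraries of the series, 1 library a side, and every gene that passed a filter of 1 CPM (counts scaled to a fixed library total) in at least 2 of the 9 libraries was compared, 18237 of 63677 gene identifiers. HuH-7 is 1 established line of human hepatocellular carcinoma, and total RNA depleted of ribosomal RNA was sequenced on an Ion Torrent Proton. The labels give the exosome dose in both libraries as that from 1 ml of serum for a stated number of cells, and that number, whose writing in the labels is unclear, is not printed here. How long the cells were exposed, and whose serum was used, is not stated in the labels. For comparison, the acetaminophen library (10 mM) was set against the untreated control, and acetaminophen at 10 mM with caffeine at 2 mM against caffeine at 2 mM. The 3 acetaminophen pairs share no library. Arsenic libraries (5 µM, 15 µM, and 5 µM with copper at 5 µM) entered the model across libraries as described with its results.

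Acetaminophen is an analgesic that hepatocytes mostly conjugate to glucuronide and sulfate. Cytochrome P450 enzymes turn a smaller share into the reactive quinone imine NAPQI, which glutathione scavenges and which damages proteins and mitochondria once glutathione runs out. Exosomes are small vesicles of endosomal origin, carrying tetraspanins, lipids and RNA, that blood cells, platelets, the liver and other tissues release into serum. HuH-7 cells carry a mutated p53 and divide continuously, so their transcriptome joins fetal and adult liver products with a high level of cell division genes.

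The acetaminophen with exosomes library held 658725 counts on genes and the exosomes library 3024317, against a range of 658725 to 8227906 over the 9 libraries. A gene at 50 CPM thus rested on 39 counts with acetaminophen (95% counting interval 35.3 to 67.8 CPM) and on 167 counts without it (42.6 to 58.0 CPM). The floor of 3 counts lay at 3.82 CPM and 0.896 CPM. HTSeq's summary lines, which are reads given to no gene, took 70.3% and 58.9% of the reads. With 1 library a side no test across cultures exists for this pair. Intervals are exact and cover counting error alone, and these are PCR reads without molecular identifiers. All levels are CPM scaled by edgeR's TMM factors, log2 ratios carry 0.5 prior counts shared by library size, and a gene is called apart when that ratio is at least 2 either way and its 95% counting interval excludes 1. All 16 markers of hepatocytes and hepatocellular carcinoma were tested, none was at 0 in either library, and they summed to 18406 CPM with acetaminophen and 29363 CPM without. Of the 8 erythroid markers, 8 were at 0 with acetaminophen and 5 without, and 6 of the 8 platelet markers were at 0 in each. Other marker lists were not absent. With and without acetaminophen, leukocyte markers summed to 216 and 274 CPM and cholangiocyte markers to 301 and 440 CPM. Fibroblast and stellate markers summed to 40.7 and 73.5 CPM, and endothelial markers to 8.90 and 7.17 CPM. In the same order, 6 and 4 of 12 leukocyte and 1 and 0 of 6 cholangiocyte markers were at 0. So were 3 and 1 of 8 fibroblast and stellate and 3 and 2 of 7 endothelial markers. Only 2 leukocyte markers had at least 100 counts over both libraries.

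About 1 in 10 tested genes was apart in this pair (1918, 10.5%), and these divided about evenly between the directions. With acetaminophen, 939 genes were higher (5.15%) and 979 lower (5.37%), and the median log2 ratio over all tested genes was -0.09. With DESeq2 size factors the same libraries gave 1190 higher and 642 lower genes and log2 ratios shifted by 0.15, so the balance between the directions depended on the scaling. Among the 6203 genes with at least 100 counts over both libraries, 166 were higher (2.68%) and 669 lower (10.8%), so most higher genes were of low count. Of 13906 protein-coding genes 643 were higher (4.62%) and 910 lower (6.54%), and of the 5917 with at least 100 counts 122 were higher (2.06%) and 629 lower (10.6%). Of the higher genes, 38 had no counts in the exosomes library, and of the lower genes, 32 had none in the acetaminophen library. The shallower library sets how small a lower value can be read. It also reaches the filter of 1 CPM with 1 count, as does the control library (951816 counts on genes). Low-count genes could therefore enter the comparisons through either. The part of these libraries in the counts was not tested.

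**Figure D1:**
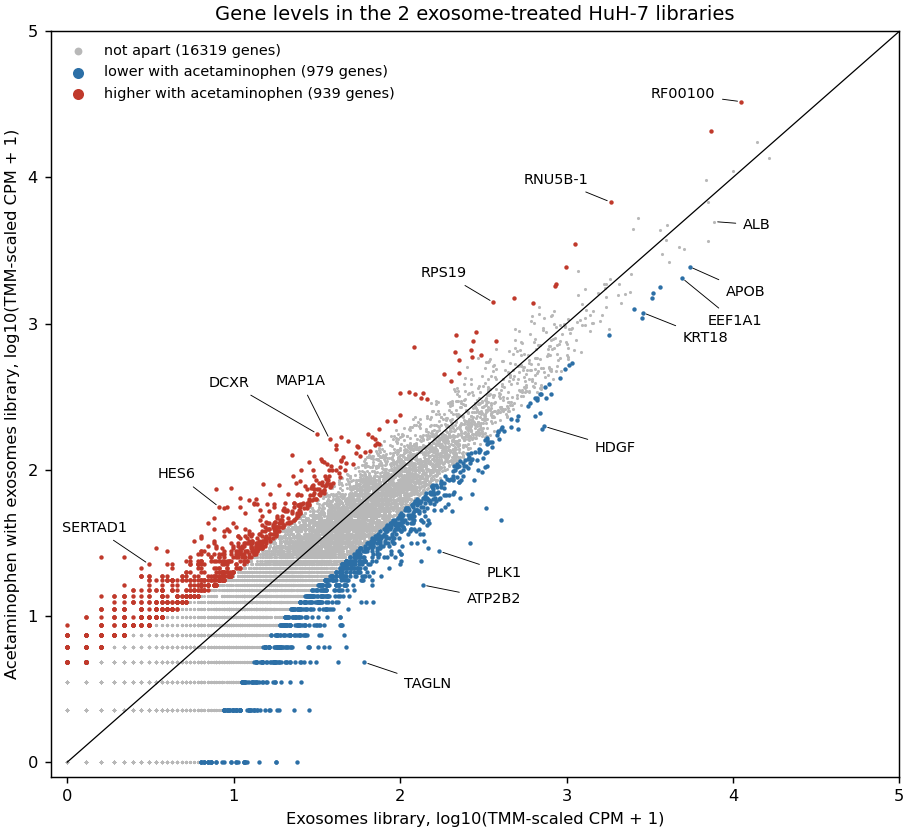
Level of each tested gene in the exosomes library (horizontal axis) and in the acetaminophen with exosomes library (vertical axis), as log10 of TMM-scaled CPM plus 1. The 939 red genes were higher and the 979 blue genes lower with acetaminophen by at least 2 times with an interval that excludes 1, and the diagonal marks equal levels.

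Among the higher protein-coding genes were metabolic enzymes and genes known from neurons and development. DCXR, which reduces dicarbonyls and L-xylulose, stood at 176 CPM with acetaminophen and 30.8 CPM without (log2 2.5, interval of the ratio 4.39 to 7.44). NPTXR, a neuronal pentraxin receptor, stood at 125 and 21.5 CPM (log2 2.52). MAP1A, a microtubule-binding protein, stood at 160 and 36.7 CPM (log2 2.12, interval 3.38 to 5.64). All 3 genes were thus more than 4 times higher, with intervals far from 1. HES6, a transcription factor of the Hairy and Enhancer of split family, was at 54.7 and 7.17 CPM (log2 2.89). TM7SF2, a sterol reductase of cholesterol synthesis, was at 61.0 and 11.3 CPM (log2 2.40), and BLVRB, biliverdin reductase B, at 77.6 and 17.6 CPM (log2 2.12). SERTAD1, a cofactor of CDK4 and E2F, was at 21.6 and 2.09 CPM (log2 3.23, interval 4.08 to 29.5). SERTAD1 and EFR3B (26.7 and 2.99 CPM) had at most 10 counts in the exosomes library, hence their wide intervals.

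Among the lower genes were a muscle protein, membrane pumps and receptors. TAGLN, the smooth muscle actin binder transgelin, had 3 counts with acetaminophen (3.82 CPM) against 201 without (60.0 CPM), a log2 ratio of -3.89 with a ratio interval of 0.013 to 0.188. ATP2B2, a plasma membrane calcium pump, stood at 15.3 and 136 CPM (log2 -3.14, interval 0.0574 to 0.197). CRYBG1, a crystallin-fold protein, had no counts with acetaminophen and 57 without (17.0 CPM), which makes it at least 4.46-fold lower at a floor of 3 counts in that library. GJA1, the gap junction protein connexin 43, was at 22.9 and 132 CPM (log2 -2.51), and IL4R, the interleukin 4 receptor chain, at 5.09 and 46.6 CPM (log2 -3.14). Among abundant genes, the growth factor HDGF was at 197 and 734 CPM (log2 -1.89), the sialyltransferase ST6GAL1 at 67.4 and 271 CPM and the cholesterol exporter ABCA1 at 50.9 and 204 CPM (both log2 -2.0). The identifier ENSG00000196226, for which no symbol was matched, stood at 44.5 and 405 CPM.

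By pathway, the share of lower genes was above that of all tested genes for cell division, ribosome assembly, cell shape and some lists of liver products, but not for all of them, while p53 targets, ribosomal proteins and oxidative phosphorylation subunits held more higher than lower genes. The counts that follow compare each list with the 5.15% higher and 5.37% lower of all tested genes. Counts given with DESeq2 size factors are to be read against 1190 higher and 642 lower of all 18237 tested genes. Fewer lower members of a list under that setting may thus reflect the shift of all genes. Many lists hold mostly well-counted genes, and genes with at least 100 counts were 2.68% higher and 10.8% lower. A list's share of lower genes above 5.37% may thus reflect depth.

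**Figure D2:**
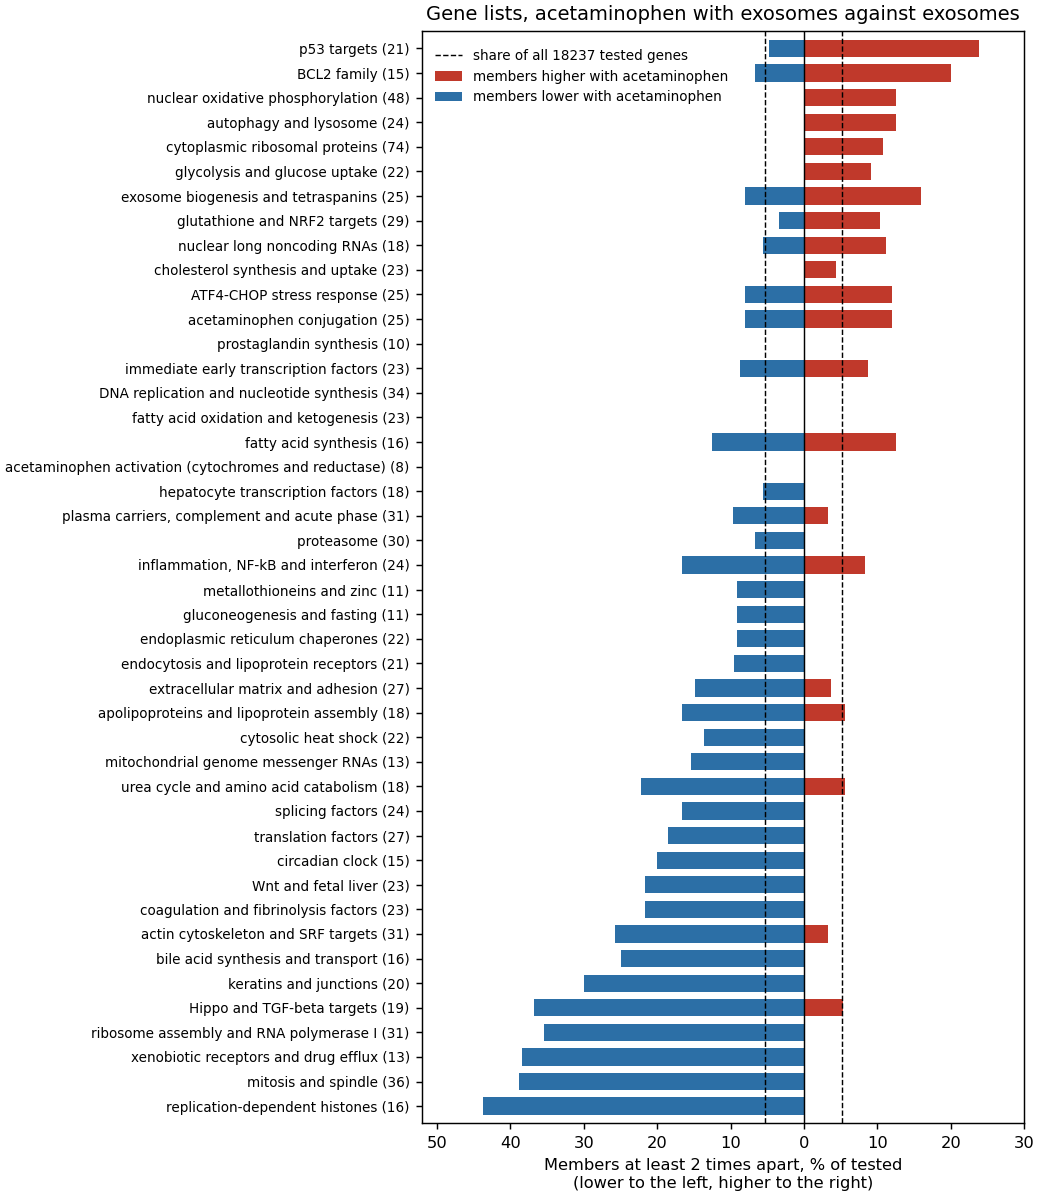
Share of each gene list's tested members that were higher (red, to the right) or lower (blue, to the left) with acetaminophen in exosome-treated cells, with the number of tested members in parentheses. Dashed lines mark the shares over all 18237 tested genes, and replication-dependent histones and mitosis genes have the longest bars to the left.

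Among genes of mitosis and the spindle, 14 of 36 tested members were lower with acetaminophen, 0 higher and 22 not apart. In all, 35 of 36 had a log2 ratio below 0, and the median was -0.83 against -0.09 over all tested genes. Among the 34 members with at least 100 counts, 14 were lower, against 10.8% of all genes at that depth. PLK1, the polo-like kinase that drives entry into and passage through mitosis, led the list at 26.7 CPM with acetaminophen and 171 CPM without (21 and 574 counts, 6.37-fold lower, ratio interval 0.0957 to 0.24). AURKA, the kinase of the spindle poles, stood at 25.4 and 100 CPM (log2 -1.97). UBE2C and CDC20, which serve the anaphase-promoting complex as its ubiquitin-conjugating enzyme and activator, were at 30.5 and 115 CPM (log2 -1.91) and at 67.4 and 207 CPM (log2 -1.61). CCNB1, cyclin B1, was at 57.2 and 192 CPM (log2 -1.74, interval 0.215 to 0.404). These genes act from the entry into mitosis to anaphase, and each was at least 3 times lower.

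Motor and spindle proteins followed. The kinetochore protein CENPF was at 52.1 and 174 CPM, the spindle pole protein ASPM at 36.9 and 123 CPM, the microtubule nucleator TPX2 at 97.9 and 291 CPM and the checkpoint kinase BUB1B at 28 and 72.0 CPM. Just inside the limit lay cyclin B2 (CCNB2, 21.6 and 46.0 CPM, 2.11-fold lower), and just outside it the midzone protein PRC1 (83.9 and 164 CPM, 1.95-fold lower). The proliferation antigen MKI67 stood at 215 and 353 CPM (log2 -0.71) and topoisomerase TOP2A at 167 and 322 CPM (log2 -0.95), both below the limit of 2. The kinase CDK1 (66.1 and 73.5 CPM), AURKB of the chromosomal passenger complex (106 and 113 CPM) and NUSAP1 (102 and 94.4 CPM) were at nearly equal levels. Of 34 tested genes of DNA replication and nucleotide synthesis 0 were higher and 0 lower, with a median log2 ratio of 0.06. With DESeq2 size factors 13 mitosis members were lower, and the range over the scaling, prior and GC and length alternatives was 13 to 14. CCNB2 was not apart with DESeq2 size factors, under which 2 replication genes were higher.

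Promoters of 4 lower members are printed because mitotic genes share a short promoter element, the cell cycle genes homology region with the core TTTGAA, through which the DREAM and MuvB complexes time their transcription. Each stretch is the 120 bases before the start site in RefSeq's GRCh38.p14 (the deposited counts use GRCh37), on the plus strand, with TTTGAA in capitals: PLK1 at chr16:23678769-23678888, CCNB2 at chr15:59105026-59105145, CDC20 at chr1:43358861-43358980 and CDCA8, borealin of the chromosomal passenger complex, at chr1:37692396-37692515.
PLK1: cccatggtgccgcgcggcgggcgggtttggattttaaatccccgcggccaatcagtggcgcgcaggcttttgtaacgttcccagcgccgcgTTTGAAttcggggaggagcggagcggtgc
CCNB2: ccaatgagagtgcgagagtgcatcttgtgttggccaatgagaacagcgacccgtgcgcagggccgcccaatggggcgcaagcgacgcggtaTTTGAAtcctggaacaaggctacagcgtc
CDC20: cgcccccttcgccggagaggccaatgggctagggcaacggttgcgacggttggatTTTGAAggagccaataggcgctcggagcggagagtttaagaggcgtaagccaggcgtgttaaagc
CDCA8: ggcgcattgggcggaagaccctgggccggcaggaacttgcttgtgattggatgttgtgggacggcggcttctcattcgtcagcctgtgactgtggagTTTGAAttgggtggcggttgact

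The element starts 29 bases before the start site in PLK1 and CCNB2, 65 in CDC20 and 23 in CDCA8. Searched on both strands in windows from 250 bases before to 50 after the start, TTTGAA was found in 23 of the 29 mitosis genes with a RefSeq promoter entry (79.3%), against 4961 of 27305 genes with an entry (18.2%). Within the list it was found in 8 of 11 lower members (72.7%) and in 15 of 18 members that were not apart (83.3%), so lower and other members both had it. A match describes the letters of the window and not the binding of a factor.

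Factors that build ribosomes also held lower genes. Of 31 tested members of ribosome assembly and RNA polymerase I, 11 were lower, 0 higher and 20 not apart, 29 had a log2 ratio below 0, and the median was -0.84. RRN3, which recruits RNA polymerase I to the ribosomal RNA promoter, stood at 8.90 CPM with acetaminophen and 35.2 CPM without (log2 -1.96). The polymerase subunit POLR1B was at 31.8 and 79.7 CPM (log2 -1.32). Pre-ribosomal RNA processing factors included RRP12 (25.4 and 86.9 CPM), WDR43 (24.2 and 82.1 CPM), UTP20 (47.1 and 140 CPM) and the pseudouridine synthase DKC1 (57.2 and 159 CPM), with log2 ratios from -1.76 to -1.47. Nucleolin (NCL) was at 308 and 642 CPM (log2 -1.06). Initiation and processing factors of the nucleolus were therefore both among the lower genes. Fibrillarin (FBL), the methyltransferase of C/D box particles, lay below the limit at 100 and 189 CPM, as did nucleophosmin (NPM1) at 577 and 915 CPM and MYC, a driver of these genes, at 71.2 and 96.4 CPM (log2 -0.44). By DESeq2 size factors 8 of the 31 were lower, without NCL.

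**Figure D3:**
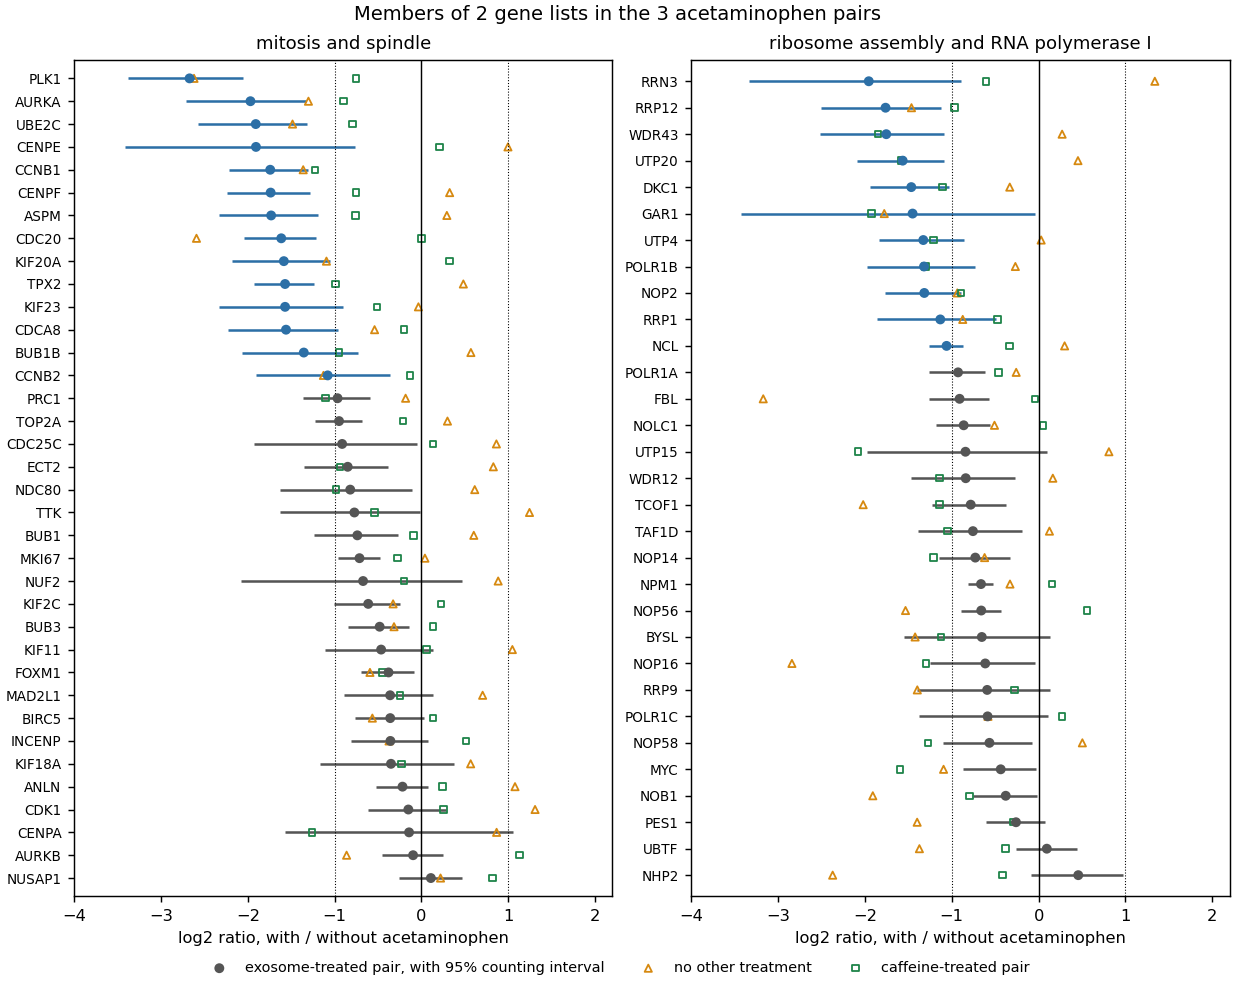
log2 ratio of acetaminophen against no acetaminophen for each tested member of the mitosis and ribosome assembly lists. Circles with bars give the exosome-treated pair with its 95% counting interval (blue where apart), triangles the pair without other treatment and squares the caffeine-treated pair, and dotted lines mark 2 times lower and higher. Mitosis circles lie left of 0 for 35 of 36 genes, while triangles for TTK, KIF11, ANLN and CDK1 lie at or beyond 2 times higher.

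Of 27 tested translation factors 5 were lower and 0 higher, with a median log2 ratio of -0.56. Elongation factor EEF1A1 stood at 2049 CPM with acetaminophen and 4936 CPM without (log2 -1.27), EIF5A at 309 and 752 CPM (log2 -1.28), and EEF2 at 1609 and 1549 CPM. Scaled by DESeq2 size factors, 2 of them were lower.

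Ribosomal proteins themselves held higher genes. Of 74 tested cytoplasmic ribosomal protein genes 8 were higher and 0 lower, and the median log2 ratio was 0.34. RPS19 stood at 1398 CPM with acetaminophen and 361 CPM without (log2 1.95, interval 3.56 to 4.2), RPL37A at 869 and 285 CPM (log2 1.61) and RPS27 at 755 and 272 CPM (log2 1.47). RPS23 was the lowest member at 444 and 775 CPM (log2 -0.80), so the family did not shift as one. Nuclear subunits of oxidative phosphorylation held 6 higher and 0 lower genes among 48, with a median of 0.16 that became -0.07 once trends with GC content and transcript length were removed. NDUFA13 of complex I was at 29.3 and 6.87 CPM (log2 2.05), COX7C of cytochrome oxidase at 214 and 91.7 CPM (log2 1.22) and NDUFA4 at 458 and 226 CPM (log2 1.02). Messenger RNAs of the mitochondrial genome had a median of -0.78, with 2 of 13 lower, MT-CO2 (426 and 916 CPM) and MT-ND1 (52.1 and 111 CPM). MT-CO3 was at 963 and 972 CPM, and neither lower gene was apart with DESeq2 size factors. Ribosomal proteins and small respiratory subunits come from short transcripts, and over protein-coding genes the log2 ratio moved with length. Its median went from -0.02 in the fifth of genes with the shortest transcripts to -0.26 in the fifth with the longest, and from -0.23 in the fifth with the lowest GC content to 0.08 in that with the highest. Across 13783 protein-coding genes in this 1 pair Pearson's r was -0.06 with log2 length and 0.11 with GC content, a description since genes are not replicates. With these trends removed 7 ribosomal proteins were higher, and the part of length and GC content in the family's level was not tested.

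Genes of replication-dependent histones were lower in part. These genes make the histone supply of S phase and their messenger RNAs lack a poly(A) tail, so they are seen in depleted total RNA. Of 16 tested members 7 were lower and 0 higher, with a median log2 ratio of -0.80. With GC and length trends removed 11 were lower and the median was -1.33. Of the 27 histone genes listed, 17 were matched to an identifier, and the others were not compared. HIST2H2AC stood at 25.4 CPM with acetaminophen and 99.7 CPM without (log2 -1.96), HIST1H2AG at 44.5 and 145 CPM (log2 -1.70) and HIST2H2BE at 141 and 357 CPM (log2 -1.34). HIST1H4C was at 299 and 324 CPM and HIST1H1A at 291 and 169 CPM (log2 0.79), so the histones did not differ as one. Histone genes resemble one another, and the assignment of reads among copies is uncertain.

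Some targets of the Hippo and TGF-beta pathways and of the actin-sensing factor SRF were lower, and most were not apart. Of 19 tested Hippo and TGF-beta targets 7 were lower and 1 higher, with a median log2 ratio of -0.98. Thrombospondin THBS1 stood at 40.7 CPM with acetaminophen and 145 CPM without (log2 -1.83), the SMAD corepressor SKIL at 40.7 and 95.3 CPM, and the YAP target CTGF at 24.2 and 56.1 CPM (log2 -1.21). The ligand TGFB2 had 1 count with acetaminophen and 38 without (1.27 and 11.3 CPM, ratio interval 0.00277 to 0.663), while the ligand TGFB1 was the 1 higher member at 25.4 and 12.2 CPM (log2 1.04). AMOTL2, another YAP target, lay just outside the limit at 35.6 and 71.1 CPM. The 2 TGF-beta ligands thus differed in opposite directions, although TGFB1 was not apart once GC and length trends were removed.

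Of 31 tested genes of the actin cytoskeleton 8 were lower and 1 higher, with a median of -0.50, and 4 were lower with DESeq2 size factors. Beside TAGLN, the crosslinker ACTN1 stood at 35.6 CPM with acetaminophen and 137 CPM without (log2 -1.93), the myosin light chain MYL9 at 11.4 and 30.5 CPM and villin (VIL1) at 172 and 381 CPM (log2 -1.15). Actin itself (ACTB) was at 1582 and 2241 CPM (log2 -0.50), and SRF at 28 and 29 CPM. The thymosin TMSB10 was higher, at 1793 and 856 CPM (log2 1.07). Of 20 genes of keratins and junctions 6 were lower and 0 higher (median -0.55), among them KRT18 at 1187 and 2875 CPM (log2 -1.28) and KRT8 at 1506 and 3282 CPM (log2 -1.12), the filament pair of simple epithelia. With DESeq2 size factors 2 of the 20 were lower, and neither KRT8 nor VIL1 was apart. TMSB10 was not apart with GC and length trends removed.

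Lists of liver products differed in their share of lower genes. Among genes of bile acid handling, 4 of 16 tested members were lower with acetaminophen, 0 higher and 12 not apart. NR1H4, which encodes FXR, stood at 22.9 CPM with acetaminophen and 100 CPM without (log2 -2.12, interval 0.134 to 0.367). Its target FGF19, the hormone that represses bile acid synthesis, was at 7.63 and 31.9 CPM (log2 -2.03). SLC51B, a subunit of the basolateral bile acid exporter, had 3 and 57 counts (3.82 and 17.0 CPM, ratio interval 0.0449 to 0.689), and the bile acid reductase AKR1D1 had 2 and 47 counts (2.54 and 14 CPM, interval 0.0213 to 0.692). The repressor NR0B2, another FXR target, was not apart at 14 and 27.5 CPM (log2 -0.96). The median of the list was -1.03, or -0.34 when members with no counts are set to the floor.

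Of 13 tested xenobiotic receptors and transporters 5 were lower and 0 higher (median -0.88, or -0.31 with members without counts at the floor). They were the export pumps ABCG2 (3 and 85 counts, 3.82 and 25.4 CPM, ratio interval 0.0304 to 0.454), ABCC4 (10.2 and 34.9 CPM), ABCC2 (50.9 and 138 CPM, log2 -1.44) and ABCC1 (10.2 and 26.6 CPM) and the uptake carrier SLCO2B1 (8.90 and 42.4 CPM, log2 -2.22). ABCC2 and ABCC4 carry conjugates of drugs out of the cell. The pump ABCB1 was at 45.8 and 44.5 CPM, and the receptor AHR at 80.1 and 99.4 CPM.

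Among the other liver lists given here, hepatocyte transcription factors and plasma carriers lay nearest to the share of all genes. The rest held a larger share of lower genes. Of 18 hepatocyte transcription factors 1 was lower and 0 higher (median -0.40), with HNF4A not apart at 259 CPM with acetaminophen and 412 CPM without (log2 -0.67). Of 31 plasma carriers, complement and acute phase genes 3 were lower and 1 higher (median -0.52), and of the 20 with at least 100 counts 3 were lower and 0 higher. Of 23 coagulation and fibrinolysis genes 5 were lower and 0 higher (median -0.75), including factor V (F5, 20.3 and 60.3 CPM) and heparin cofactor SERPIND1 (47.1 and 120 CPM). The fibrinogen chain FGA was at 515 and 508 CPM. Of 18 apolipoprotein genes 3 were lower and 1 higher (median -0.35), among them APOB, the structural protein of low density lipoprotein, at 2450 and 5486 CPM (log2 -1.16). Albumin (ALB) was at 4987 and 7696 CPM (log2 -0.63), below the limit, and APOB was not apart once GC and length trends were removed. Under that setting 4 members of the apolipoprotein list were lower and its median was -0.79. Of 18 genes of the urea cycle and amino acid catabolism 4 were lower and 1 higher (median -0.79). Glutamate dehydrogenase (GLUD1) was at 196 and 407 CPM (log2 -1.05), and the lysine enzyme AASS was the higher one at 26.7 and 9.85 CPM (log2 1.42). With DESeq2 size factors 2 of the 18 were lower, without GLUD1. Among 23 Wnt and fetal liver genes 5 were lower and 0 higher (median -0.55), with the oncofetal RNA-binding protein IGF2BP1 at 242 and 694 CPM (log2 -1.52) and the chromatin protein HMGA2 at 90.3 and 238 CPM (log2 -1.39). Alpha-fetoprotein (AFP) was at 3663 and 7096 CPM (log2 -0.95) and not apart, and with DESeq2 size factors 3 of the 23 were lower. In bulk RNA, fewer cells of a state and less RNA per cell cannot be told apart.

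Lists of acetaminophen activation and conjugation both had medians near that of all tested genes. Of 8 tested activation genes 0 were higher and 0 lower (median -0.10). CYP2E1, the main activating enzyme in liver, had no counts with acetaminophen and 0.597 CPM without, under both floors, and the reductase POR stood at 156 and 179 CPM. Of 25 tested conjugation genes 3 were higher and 2 lower (median -0.08), 2 of the 9 with at least 100 counts were higher, and the list summed to 2639 CPM with acetaminophen and 1674 CPM without. The higher ones were the glutathione transferases GSTP1 (1852 and 864 CPM, log2 1.1) and GSTM3 (49.6 and 23.9 CPM, log2 1.05) and the acetyltransferase NAT1 (16.5 and 6.87 CPM). GSTP1 made up most of the list's sum in both libraries. The lower ones were sulfotransferases, SULT2A1 with 3 and 56 counts (3.82 and 16.7 CPM, ratio interval 0.0457 to 0.702) and SULT1E1 with 0 and 20 counts (0 and 5.97 CPM, at least 1.57-fold lower). With GC and length trends removed GSTP1 was not apart, and with a 99% interval neither NAT1 nor SULT1E1 was.

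Targets of NRF2, the sensor of electrophiles, were near equal as a list, with 3 higher and 1 lower of 29 and a median of -0.01. Glutathione synthesis genes GCLC (30.5 and 32.8 CPM) and GCLM (39.4 and 40.9 CPM) and the reductase TXNRD1 (430 and 455 CPM) stood at nearly equal levels. HMOX1, heme oxygenase, was at 20.3 and 30.2 CPM, and NQO1 at 370 and 633 CPM (log2 -0.77). The higher members were superoxide dismutase SOD1 (563 and 224 CPM, log2 1.33), the lipid peroxidase GPX4 (613 and 303 CPM, log2 1.01) and OSGIN1 (36.9 and 13.7 CPM, log2 1.41), and the lower one was AKR1C2 (29.3 and 68.1 CPM). GPX4 was not apart once GC and length trends were removed. Of 22 cytosolic heat shock genes 0 were higher and 3 lower, 19 of the 21 with a ratio were below 0 and the median was -0.65. The list summed to 4484 CPM with acetaminophen and 8546 CPM without, with HSPA8 at 1086 and 2854 CPM (log2 -1.39). Of 22 chaperones of the endoplasmic reticulum 0 were higher and 2 lower, XBP1 (272 and 582 CPM) and HSPA5 (485 and 972 CPM), and with DESeq2 size factors neither was apart. Of 16 heat shock and 19 endoplasmic reticulum genes with at least 100 counts, 2 each were lower, against 10.8% of genes at that depth.

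The ATF4-CHOP list had 3 higher and 2 lower of 25 (median -0.05). Asparagine synthetase ASNS stood at 80.1 CPM with acetaminophen and 31.4 CPM without (log2 1.35), the repressor ATF3 at 12.7 and 4.78 CPM, and the translation repressor EIF4EBP1 at 70.0 and 32.2 CPM (log2 1.11). The pseudokinase TRIB3 was lower at 45.8 and 112 CPM (log2 -1.29), and DDIT3, which encodes CHOP, was at 25.4 and 28.7 CPM. Transcripts of this pathway therefore lay on both sides. With DESeq2 size factors 5 were higher and 1 lower, EIF4EBP1 was not apart with GC and length trends removed, and ATF3 was not with a 99% interval.

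Of 21 tested target genes of p53, 5 were higher and 1 lower, with a median of 0.37. CDKN1A, the cyclin-dependent kinase inhibitor p21, stood at 36.9 CPM with acetaminophen and 8.36 CPM without (29 and 28 counts, log2 2.11, interval 2.53 to 7.7). GADD45A was at 21.6 and 8.06 CPM (log2 1.4), TP53I3 at 35.6 and 17.0 CPM (log2 1.05), and the repair factor DDB2 at 14 and 5.97 CPM (log2 1.20). BBC3, which encodes the death inducer PUMA, had 7 counts in each library (8.90 and 2.09 CPM, interval 1.27 to 14.2). These members are of low count, since among the 8 members with at least 100 counts 0 were higher and 1 lower, with a median of -0.38. With GC and length trends removed 3 of the 21 were higher, without BBC3, DDB2 and TP53I3. MDM2, the ubiquitin ligase of p53, was at 44.5 and 57.6 CPM, and BAX at 103 and 54.6 CPM (log2 0.91, interval 1.43 to 2.46). In the BCL2 family 3 of 15 were higher and 1 lower (median -0.11). BBC3, BAD (12.7 and 4.18 CPM) and PMAIP1, which encodes NOXA (16.5 and 7.17 CPM), were higher and BID (19.1 and 42.4 CPM) lower. All 4 promote cell death, and BID was not apart with DESeq2 size factors. With a 99% counting interval 0 of the family's members were higher and 1 was lower, and with GC and length trends removed 1 was higher and 1 lower.

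Lysosome and vesicle genes held some higher members. Of 24 autophagy and lysosome genes 3 were higher and 0 lower (median 0.16), namely the sialidase NEU1 (331 and 122 CPM, log2 1.44, interval 2.32 to 3.19), the kinase ULK1 that starts autophagy (72.5 and 29.6 CPM, log2 1.29) and the cholesterol carrier NPC2 (39.4 and 16.7 CPM). Of 25 genes of exosome biogenesis 4 were higher and 2 lower (median -0.15). The tetraspanins CD82 (14 and 2.69 CPM), CD9 (29.3 and 8.96 CPM, log2 1.68) and CD81 (99.2 and 45.7 CPM, log2 1.11) and the adaptor SDCBP, syntenin (123 and 56.1 CPM, log2 1.13), were higher. Flotillin FLOT1 (38.2 and 120 CPM, log2 -1.64) and the tetraspanin TSPAN8 (19.1 and 49.0 CPM) were lower, and CD63 was at 308 and 326 CPM. Tetraspanins of the vesicle membrane thus lay on both sides of the exosomes library, and CD81 was not apart with GC and length trends removed.

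Small nuclear RNAs held many higher genes with acetaminophen, although most members were not apart. Of 161 tested genes and copies of small nuclear RNAs 62 were higher (38.5%) and 0 lower, and they took 4.57% of the counts on genes with acetaminophen and 2.60% without. Copies of low count could pass the filter through the shallow acetaminophen library and then be called higher in it. The share of higher copies is therefore no measure of the class. These RNAs, U1, U2, U4, U5 and U6, are the core of the spliceosome. RNU5B-1 stood at 6784 CPM with acetaminophen and 1837 CPM without (log2 1.88, interval 3.56 to 3.83), and RNU5A-1 at 3515 and 1117 CPM (log2 1.65, interval 2.99 to 3.31). In the pair without other treatment RNU5B-1 was at 307 CPM with acetaminophen and 2982 CPM in the control, and in the caffeine-treated pair at 862 and 2476 CPM. RNU5B-1 was thus higher with acetaminophen in exosome-treated cells and lower in both other pairs. RNU4-1 was at 837 and 216 CPM (log2 1.96) here, at 223 and 244 CPM without other treatment and at 584 and 500 CPM with caffeine. Since U RNA genes have many near-identical copies, the split of reads among them is uncertain, and class totals are the safer measure. U5 genes and copies took 1.86% of the counts with acetaminophen and 0.801% without, U4 0.193% and 0.0387%, and U2 2.21% and 1.63%.

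Other short noncoding RNAs held higher members too. An entry of the 7SK family (RF00100), the RNA that holds the elongation kinase P-TEFb inactive, stood at 32981 CPM with acetaminophen and 11186 CPM without (log2 1.56), and RMRP, the RNA of a ribosomal RNA processing ribonuclease, at 20619 and 7401 CPM (log2 1.48). Of 68 tested 7SK copies 27 were higher and 0 lower, and of 143 tested copies of 7SL, the RNA of the signal recognition particle, 22 were higher and 0 lower. Low-count copies could pass the filter in the same way here, so these shares carry the same limit. The class was not uniform, since the Y RNA RNY3 was lower at 1620 and 3287 CPM (log2 -1.02) and SNORD13, which guides acetylation of 18S ribosomal RNA, was lower at 1770 and 3626 CPM (log2 -1.03). Neither RNY3 nor SNORD13 was apart with DESeq2 size factors, and neither RF00100 nor RMRP once GC and length trends were removed. Of 67 C/D box RNAs 3 were higher and 9 lower, and of 69 H/ACA RNAs 2 were higher and 1 lower. Protein-coding genes took 74.1% of the counts with acetaminophen and 81.7% without. In total RNA libraries the share of short RNAs also moves with depletion and size selection, and their part in these values was not tested.

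**Figure D4:**
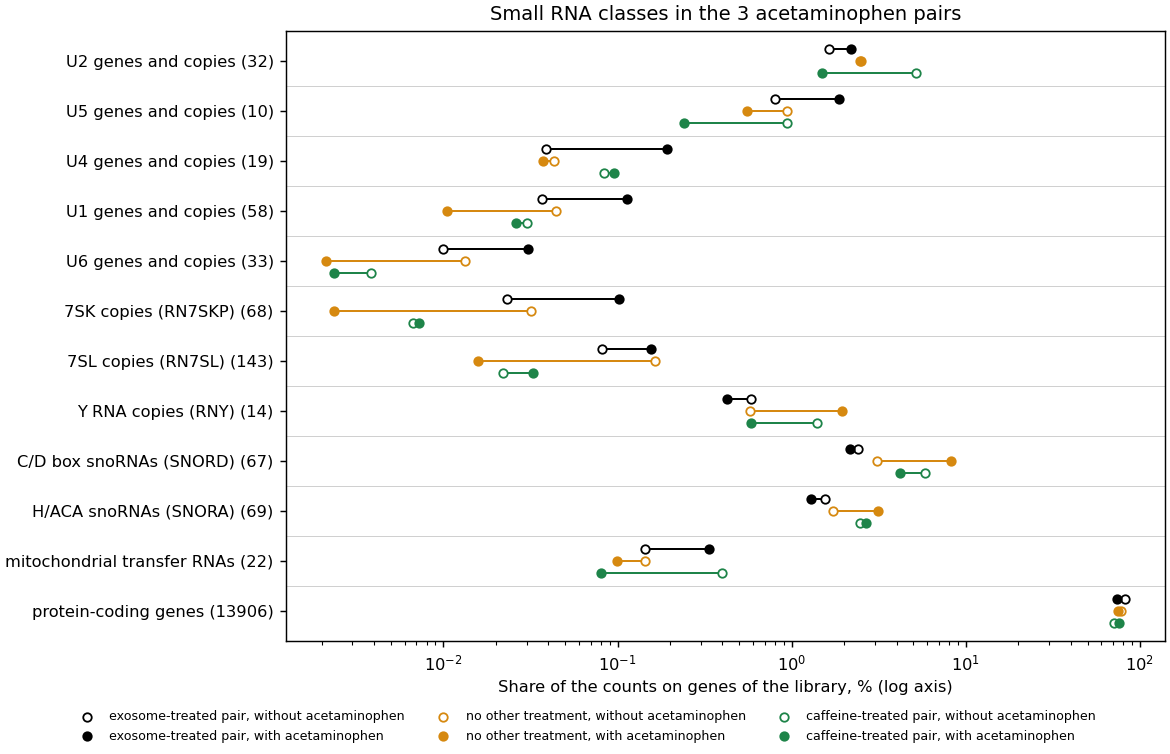
Share of each library's counts on genes (%, log axis) taken by classes of small RNA and by protein-coding genes, with the number of tested genes in parentheses. Open circles are libraries without and filled circles libraries with acetaminophen in the exosome-treated (black), otherwise untreated (orange) and caffeine-treated (green) pairs. The U5 share is higher with acetaminophen in the exosome-treated pair (0.801% to 1.86%) and lower in both other pairs.

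Genes apart in exosome-treated cells were then looked up in both other pairs. Of the 939 higher genes, 422 (44.9%) were also higher in the caffeine-treated pair and 34 (3.62%) lower there, while 155 (16.5%) were also higher in the pair without other treatment and 180 (19.2%) lower there. Of the 979 lower genes, 425 (43.4%) were also lower with caffeine and 14 (1.43%) higher there, while 246 (25.1%) were also lower without other treatment and 118 (12.1%) higher there. As a share of the other pair's own genes, these were 18.4% and 6.49% of its higher genes and 17.8% and 11.1% of its lower genes, for the caffeine-treated and the otherwise untreated pair. Those pairs had 2290 higher (12.6%) and 2386 lower (13.1%) genes with caffeine, and 2387 higher (13.1%) and 2211 lower (12.1%) without other treatment, in all 25.6% and 25.2% of tested genes. Pearson's r of the log2 ratio with GC content was 0.20 in the caffeine-treated and -0.48 in the otherwise untreated pair. With length it was 0.0051 and 0.31. The part of these trends in the overlaps was not tested. Low-count genes could also pass the filter through the control and the acetaminophen with exosomes libraries. Their part in the genes of opposite direction was not tested.

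In all 3 pairs 101 genes were higher (0.554% of tested genes) and 130 lower (0.713%). MAP1A stood at 160 CPM with acetaminophen and 36.7 CPM without in exosome-treated cells, at 192 and 39.6 CPM without other treatment and at 185 and 25.7 CPM with caffeine, so its 3 drug libraries lay close together. CHCHD7, a small mitochondrial protein, was at 58.5 and 12.2 CPM, 56.9 and 13.5 CPM, and 48.6 and 10.3 CPM in the same order. PMAIP1 was at 16.5 and 7.17 CPM, 29.5 and 4.82 CPM, and 20.4 and 4.45 CPM. NR1H4 was at 22.9 and 100 CPM, 18.2 and 120 CPM, and 6.97 and 72.0 CPM, and its partner genes FGF19, SLC51B and AKR1D1 were lower in all 3 pairs too. ATP2B2 was at 15.3 and 136 CPM, 11.2 and 117 CPM, and 9.42 and 145 CPM. In both NR1H4 and ATP2B2 the 3 drug libraries lay below the 3 others of these pairs. The genes of this paragraph are given because they were apart in the same direction in all 3 pairs. Their agreement thus follows largely from that choice and is no further support.

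Other members of the lists differed between the pairs. PLK1 was at 26.7 and 171 CPM in exosome-treated cells and at 28.1 and 175 CPM without other treatment, but at 40.5 and 68.3 CPM with caffeine. The mitosis list as a whole had a median log2 ratio of -0.83 with exosomes, 0.26 without other treatment and -0.22 with caffeine. CDK1 was at 66.1 and 73.5 CPM, 161 and 64.6 CPM, and 56.2 and 47.2 CPM. Ribosome assembly was lower by its median in each pair (-0.84, -0.62 and -0.97), whereas ribosomal proteins had medians of 0.34, -2.09 and 0.30. RPS19 was at 26 and 729 CPM in the pair without other treatment, opposite to its difference with exosomes. CDKN1A was at 9.83 and 9.65 CPM without other treatment and at 106 and 24.1 CPM with caffeine. These medians are descriptions of 1 library pair each, and differences between them were not tested per list. Without other treatment, the median over protein-coding genes went from -0.78 in the fifth with the shortest transcripts to 0.59 with the longest. It went from 0.96 in the fifth with the lowest GC content to -1.08 with the highest. The part of these trends in the lists' medians was not tested.

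In all, 12 genes were higher here and lower in both other pairs, and 3 were lower here and higher in both. The former include RNU5B-1 and RNU1-146P, a U1 copy. The latter are ENSG00000222894, for which no symbol was matched (0 and 6.87 CPM here), TP53INP2, a regulator of autophagy, at 7.63 and 19.1 CPM here, 26 and 9.65 CPM without other treatment and 41.3 and 16.4 CPM with caffeine, and KLHL11, a ubiquitin ligase adaptor, at 11.4 and 27.5 CPM here, 39.3 and 10.6 CPM, and 54.5 and 23.9 CPM. TP53INP2 had 6 counts in the drug library and was not apart with DESeq2 size factors.

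Acetaminophen was tested across libraries in an edgeR quasi-likelihood model of all 9 libraries with terms for acetaminophen, exosomes, caffeine and arsenic, with 4 residual degrees of freedom. Its error holds departures from additive effects among the 6 libraries without arsenic and also the differences among the 3 arsenic libraries, since arsenic dose and copper have no term of their own. At an adjusted p under 0.05 it called 4 genes for acetaminophen (0.0219% of tested genes). EFR3B, which anchors a lipid kinase to the plasma membrane, rose, and in the exosome-treated pair stood at 26.7 and 2.99 CPM (edgeR adjusted p = 0.015). ATP2B2 fell (15.3 and 136 CPM here, edgeR adjusted p = 0.01). MYH4, a fast skeletal muscle myosin, fell with 1 and 91 counts here (1.27 and 27.2 CPM, edgeR adjusted p = 0.0028). TM4SF4, a tetraspan membrane protein of liver and gut, fell with 1 and 59 counts here (1.27 and 17.6 CPM, edgeR adjusted p = 0.019). Each of the 4 had the same direction in 3 of 3 pairs, which follows largely from their call in these same libraries and is no further support. With any 1 of the 6 libraries of the acetaminophen pairs left out edgeR called 0 genes, without arsenic 5 µM it called 179, and in the 6 libraries without arsenic 249. No member of the pathway lists passed. PLK1 had an edgeR adjusted p of 0.32, NR1H4 of 0.1 and ARG1, the urea cycle arginase (1 and 27 counts here), of 0.055.

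**Figure D5:**
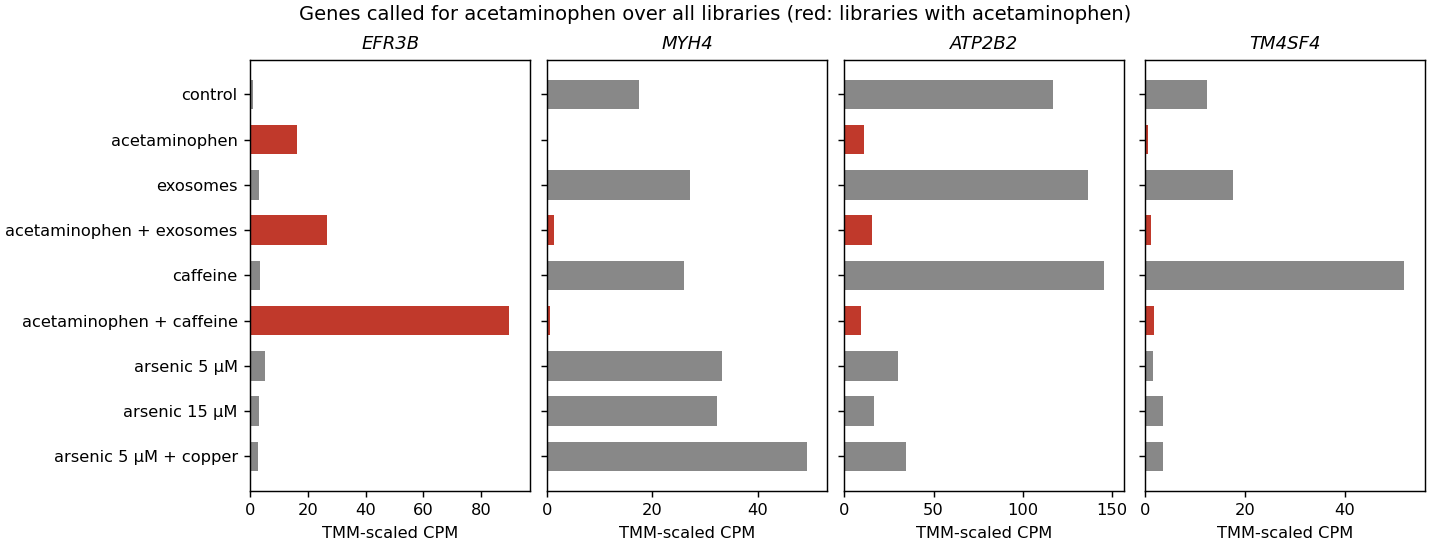
TMM-scaled CPM of the 4 genes called for acetaminophen by edgeR in each of the 9 libraries, with red bars for the 3 libraries given acetaminophen. EFR3B is higher and MYH4, ATP2B2 and TM4SF4 are lower in the red bar of each of the 3 pairs, at 26.7, 1.27, 15.3 and 1.27 CPM in the acetaminophen with exosomes library.

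Whether acetaminophen acted differently with exosomes was tested as 1 further term, acetaminophen by exosomes, in the same model (3 residual degrees of freedom). edgeR called 0 of 18237 genes (0.0%) and had 87 genes at an unadjusted p under 0.05, and DESeq2 called 0 with 63 at that level. Both counts lie far below the share of 0.05 expected where no gene differs, so the test was conservative. Without replicates it had little power, and the lack of calls does not show that the response was alike. For the exosome-treated pair no gene's departure from the other pairs passed this test, and differences between the caffeine-treated and the otherwise untreated pair were not tested.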

How the data were processed

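The deposited files hold, for each library, unnormalized counts of reads by Ensembl gene. Per the submitters' processing notes, tools named are TopHat2 2.0.13 and HTSeq 0.6.1, with build GRCh37. Per the labels' protocols, RNA was isolated with mirVana, depleted with RiboMinus and prepared for sequencing by the Ion Total RNA-Seq Kit v2. No label names the annotation release, the strand setting or read filters, so reads of overlapping and antisense genes may fall to either gene. Each condition has 1 library.

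HTSeq's summary lines were left out (42.3% to 70.3% of reads). Genes reaching 1 CPM in 2 or more libraries were scaled by TMM. Pair ratios had exact conditional binomial 95% intervals (scipy 1.17.1, pandas 2.3.3). edgeR 4.0.16 in R 4.3.3 fitted the additive model and the extra term with Benjamini-Hochberg adjustment, and DESeq2 1.42.0 was run beside it. Both steps were run on simulated data, with counting error alone for the pair and additive effects for the model. These runs do not cover variation between cultures in the pair or departures from additive effects. Gene types came from GENCODE 29 and older symbols from RefSeq. Of 1155 list entries 1136 matched an identifier, and 496 tested genes had no type.

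The members, the 44 lists and 7 marker lists were chosen with earlier results of these data known. Named genes were, among genes apart with at least 20 counts over both libraries, the 15 highest and lowest protein-coding genes and 4 others per direction by the interval bound nearest to 1, up to 5 members apart per list, the 4 per direction with the largest smallest ratio over the 3 pairs, and 3 per direction opposite to both other pairs. A part of them is printed. Other list members are given for their role. A set of small RNAs, among them RNY3, SNORD13 and RMRP, was added by gene type after its values were seen. Alternatives were DESeq2 size factors, total counts, a 99% interval, 2 prior counts, GC and length trends removed (lowess), no filter, protein-coding genes alone, DESeq2, the 6 libraries without arsenic and each library left out. The limit to genes with at least 100 counts was added after seeing the data. Some genes and sequences are not reported here.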

Additional observations from a re-analysis of the deposited data

How the results depend on the processing

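The count of genes apart, 1918, was between 1380 and 1966 under the other scalings, the 99% interval, 2 prior counts, trends removed, no filter and protein-coding genes alone. It was 835 among the genes with at least 100 counts, where fewer genes were compared. Of 243 named genes apart, 201 were apart in the same direction with DESeq2 size factors, 215 with total counts, 214 with a 99% interval and 241 with 2 prior counts. With GC and length trends removed 204 of 237 were, and 1 reversed, MIR3687-2, to a log2 ratio of -0.19, since the removed trend exceeded its ratio at its length and GC content.

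Calls for acetaminophen, 4 with edgeR, were 4 with DESeq2 size factors, 46 with no count filter, 49 with DESeq2 and 249 in the 6 libraries without arsenic. With 1 library left out they ranged from 0 to 179, being 0 without any 1 of the 6 libraries of the acetaminophen pairs, 179 without arsenic 5 µM, 124 without arsenic 15 µM and 14 without arsenic with copper. Without 1 library of a pair, the other library of that pair alone sets a coefficient of the model and is fitted exactly. Such a fit estimates acetaminophen from the other pairs alone. The cause of the differences in the number of calls was not tested. The acetaminophen by exosomes term gave 0 calls under its 4 alternatives. No paired analysis was possible because each condition has 1 library, so replicate numbers pair nothing. Depth limits the lower genes, since 5 CPM is 4 counts with acetaminophen (1.39 to 13 CPM) and 17 counts without (2.96 to 8.13 CPM).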
